A study of Homo sapiens with 6 samples.

Results

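The genes described here encode the mitochondrial respiratory chain and ATP synthase in OCI-AML2, a cell line established from human acute myeloid leukaemia. They were chosen by symbol from the deposited count table: symbols that begin with NDUFA, NDUFB, NDUFC, NDUFS, NDUFV, UQCR, COX4 to COX8, ATP5, MT-ND, MT-CO, MT-CYB or MT-ATP, and the 4 genes SDHA, SDHB, SDHC and SDHD. Of 55765 rows, 228 met these letters, and after 118 pseudogenes and 2 antisense genes were set aside 108 remained, 95 of the nuclear and 13 of the mitochondrial genome. The rule used no measured value. One group of 3 libraries came from cells given MRT199665 at 100 nM for 48 h, and the other group of 3 from cells given vehicle alone for the same time. The labels name MRT199665 as an inhibitor of MARK, a family of kinases that phosphorylate microtubule-associated proteins. The cultures were single-cell clones, per the same labels. No label tells whether the replicates are separate cultures, and the p-values here therefore rest on a spread between libraries that may be technical. The comparison addresses how transcript levels in the inhibited cells differ from those in vehicle.

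The respiratory chain moves electrons from NADH and succinate to oxygen and uses the energy to pump protons across the inner mitochondrial membrane. Complex I takes electrons from NADH, complex II from succinate, complex III passes them to cytochrome c, complex IV reduces oxygen, and complex V, the ATP synthase, lets the protons flow back and makes ATP. All complexes except II are mosaics of 2 genomes: a few catalytic membrane subunits are encoded in mitochondrial DNA, whose genes are copied as long RNAs and cut apart, and the many other subunits are encoded in the nucleus and imported. Acute myeloid leukaemia cells are known to rely on this pathway.

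Total counts ranged from 5871097, in MRT199665 replicate 2, to 14308650. Levels are given as CPM, which scales counts so that libraries of unequal depth can be compared. The limit set by a count of 0 (3 counts) was 0.210 to 0.511 CPM over the libraries, for counting error only. On the first principal component of all tested genes, which held 46.8% of the variance, MRT199665 replicate 2 lay at -48.4 and the other libraries between -10.6 and 36.8, so results that lean on that library are also given without it. CD33, MPO and SPI1, which mark myeloid cells, lay between 31.0 and 92.6 CPM in every library, while CEBPA, another myeloid gene, had no count. The 8 myeloid markers summed to between 289 and 327 CPM with vehicle and between 380 and 395 with MRT199665. Of the 5 erythroid markers 4 had no count in any library. Whether this shift of myeloid markers had a part in any result here was not tested. In bulk RNA, fewer cells of a kind and less RNA per cell cannot be told apart.

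No respiratory chain gene passed the test. The threshold was a Benjamini-Hochberg adjusted p of 0.05 in the quasi-likelihood test of edgeR, and 1.25% of the 13053 genes with enough counts passed it, 0.85% higher and 0.398% lower with MRT199665. Of the 108 members 98 had enough counts to be tested, and 0 were called, 0 by DESeq2 and 0 by limma-voom. Unadjusted p was under 0.05 for 8 of the 98 (14.7% of all genes), 1 higher (7.64% of all genes) and 7 lower (7.11% of all genes). This count depended on the libraries: it was 15 without vehicle replicate 1 and 15 without MRT199665 replicate 1, 5 without vehicle replicate 2 and 5 without vehicle replicate 3, 8 without MRT199665 replicate 2 and 6 without MRT199665 replicate 3. In each of these fits 0 members were called. The lowest adjusted p was 0.141, for SDHB. Without a filter on low counts 5 members were called, SDHC, NDUFB7, NDUFB1 and MT-CO2 higher and SDHB lower. In that fit 644 of 28230 genes were called, 373 higher and 271 lower.

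The fitted changes were small for most members. The median log2 fold change was -0.05 over the 85 tested nuclear members and -0.01 over the 13 mitochondrial members, against 0.01 over all genes tested. The 95% interval of the change lay within 1.5-fold in both directions for 44 of the 85 nuclear and 9 of the 13 mitochondrial members, and within 2-fold for 76 and 12. Over all genes tested these shares were 37.4% and 74.9%. For the remaining members the data leave room for changes of that size. Fitted changes were past 1.5-fold for 5 members, NDUFB7, NDUFB1, SDHC and MT-CO2 (higher) and SDHB (lower), against 10.3% of all genes. Without MRT199665 replicate 2 the log2 fold changes of NDUFB7, NDUFB1, SDHC and MT-CO2 were 0.37, 0.22, -0.48 and 0.08, so none of these 4 was then past 1.5-fold higher, and SDHB was at -0.81.

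**Figure D1:**
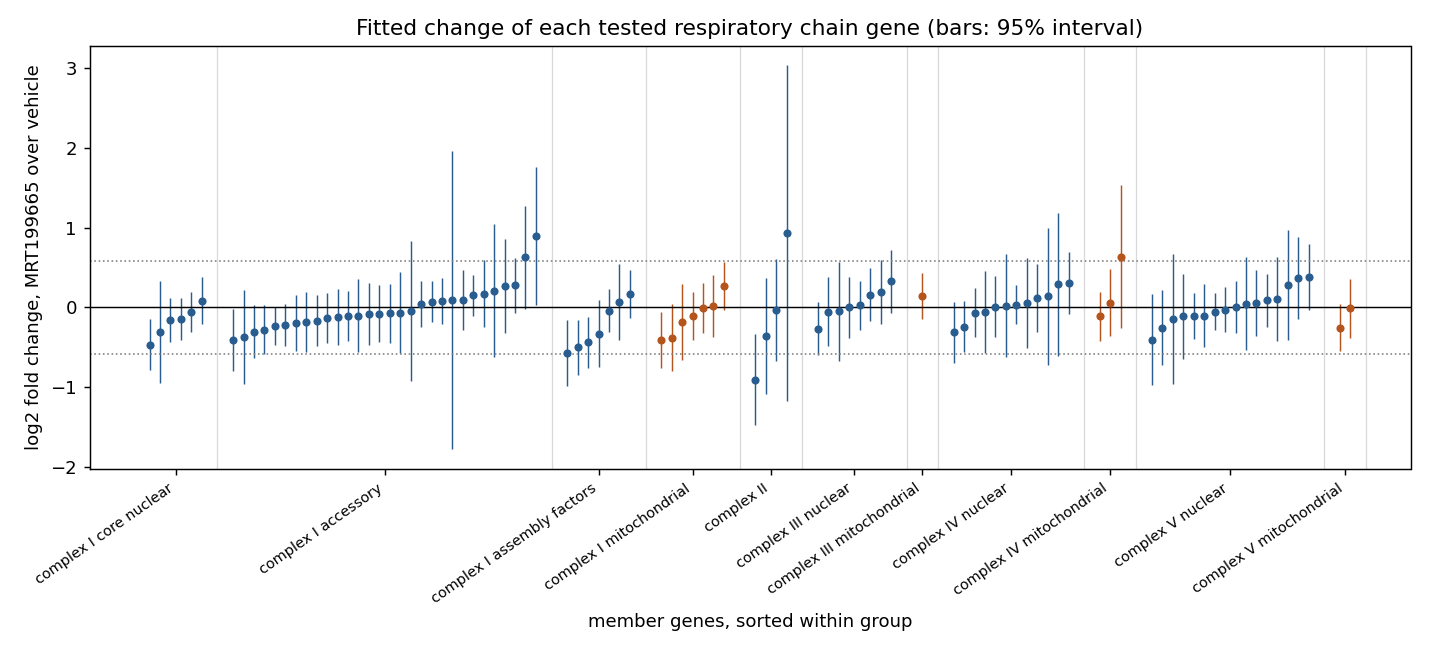
Fitted log2 fold change of MRT199665 over vehicle (vertical axis) for each tested member, grouped by complex and genome, with bars for the 95% interval and dotted lines at 1.5-fold. ATP5S and ATP5SL are not drawn. Nuclear genes are blue and mitochondrial genes orange. Most points lie between the dotted lines, and the widest bars are those of SDHC and NDUFB6.

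In 13 of the 98 members the 3 libraries of one group did not overlap with the 3 of the other, 12 lower and 1 higher with MRT199665. Of all genes 22.2% did not overlap, 10.8% lower and 11.4% higher. Of these 13, 11 belong to complex I (10 lower and 1 higher), for which 50 members were tested. Counted in either direction, that is close to the share of all genes. Assembly factors, which are not subunits, made up 4 of these 11, with 7 tested. The rest of the 13 were SDHB and the complex IV gene COX8A. Complexes III and V had none among 9 and 18 tested members. Whether complex I differs in this from the other complexes was not tested.

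Nuclear respiratory genes are known to share promoter sites for NRF1 and for factors of the ETS family such as GABP. Promoters of 77 of the 95 nuclear members were found in RefSeq (GRCh38.p14), and the 250 bases before each gene's start were searched on both strands. The NRF1 letters, GCGC, any 2 bases and GCGC again, were in 16 of the 77 (20.8%), against 7.58% of 27305 promoters of all kinds of gene. The ETS letters CCGGAAGT were in 9 (11.7%, against 3.64%), and the YY1 letters AAGATGGC in 1 (1.30%, against 1.37%). Of the 11 nuclear members whose groups did not overlap, 10 had a promoter in the table, 2 with an NRF1 match and 1 with an ETS match. These 3 are shown, with the match in capitals, because they are the members with separate groups whose promoters hold the letters searched. NDUFB4 (chr3:120596086-120596335, plus strand) has 2 matches, NDUFAF5 (chr20:13784778-13785027, plus strand) 1 at the end of the stretch, and COX8A (chr11:63974370-63974619, plus strand) 1 on the opposite strand. A match is a description of the letters and not of binding.
NDUFB4: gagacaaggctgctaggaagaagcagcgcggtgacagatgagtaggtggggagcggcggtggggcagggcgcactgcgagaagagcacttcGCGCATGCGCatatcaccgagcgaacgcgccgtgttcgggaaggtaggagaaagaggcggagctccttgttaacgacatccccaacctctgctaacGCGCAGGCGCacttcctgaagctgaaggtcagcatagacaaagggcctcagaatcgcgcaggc
NDUFAF5: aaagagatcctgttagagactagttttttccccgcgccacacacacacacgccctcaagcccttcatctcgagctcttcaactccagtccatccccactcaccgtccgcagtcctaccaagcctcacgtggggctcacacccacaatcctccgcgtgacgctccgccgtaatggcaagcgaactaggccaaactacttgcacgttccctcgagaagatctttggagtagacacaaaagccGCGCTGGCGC
COX8A: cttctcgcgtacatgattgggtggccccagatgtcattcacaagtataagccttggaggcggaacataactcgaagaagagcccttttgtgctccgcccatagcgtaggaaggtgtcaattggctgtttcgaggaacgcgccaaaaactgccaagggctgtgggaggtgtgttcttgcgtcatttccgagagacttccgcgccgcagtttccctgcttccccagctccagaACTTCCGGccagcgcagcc

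Complex I is the largest of the chain, with a hydrophilic arm that carries the flavin and iron-sulphur clusters and a membrane arm that pumps protons. Of its 7 conserved nuclear core subunits 6 were tested, and 5 had negative log2 fold changes (median -0.15, and -0.071 without MRT199665 replicate 1). NDUFV1, which binds NADH and the flavin, was at 148, 164 and 155 CPM in vehicle replicates 1, 2 and 3 and at 128, 158 and 133 CPM in MRT199665 replicates 1, 2 and 3. NDUFS3 was at 153, 151 and 141 CPM with vehicle and at 146, 183 and 143 CPM with MRT199665. In both genes the groups overlapped. NDUFS7, which carries the last iron-sulphur cluster before quinone, had only 12, 6 and 4 counts with vehicle and 11, 9 and 12 with MRT199665 and was not tested.

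The 30 accessory subunits surround the core. Of them 12 had positive and 18 negative log2 fold changes (median -0.07), and 4 had treated libraries all below vehicle (10.8% of all genes). The median turned to 0.040 without MRT199665 replicate 1 and was also above 0 without vehicle replicate 1. NDUFB4, a membrane arm subunit, was at 98.7, 126 and 102 CPM with vehicle and at 95.3, 63.1 and 86.7 CPM with MRT199665 (log2 fold change -0.41 ± 0.17, SE, adjusted p = 0.317). Without MRT199665 replicate 2, its lowest library, the log2 fold change was -0.26. NDUFS6, a zinc-binding subunit with the highest CPM of this group, was at 409, 450 and 413 CPM with vehicle and at 349, 345 and 400 CPM with MRT199665. NDUFA6 and NDUFA7, chosen after their values were seen, also did not overlap, with means of 89.8 and 23.4 CPM with vehicle and 76.3 and 19.3 CPM with MRT199665. All 4 differences were under 1.5-fold.

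NDUFB7, another membrane arm subunit, had the lowest p among accessory subunits with a positive fold change. It was at 38.0, 23.6 and 40.2 CPM with vehicle and at 33.1, 105 and 54.5 CPM with MRT199665, so that replicate 2 stood apart and replicate 1 lay inside the vehicle range. The log2 fold change was 0.90 ± 0.38 (SE, adjusted p = 0.321), and 0.16 without replicate 2 of both groups. NDUFB1, chosen after its values were seen, had the same shape, at 112, 75.3 and 82.0 CPM with vehicle and 96.1, 209 and 113 CPM with MRT199665. NDUFB9 and NDUFB8, next to NDUFS6 in CPM, had log2 fold changes of -0.10 ± 0.14 and -0.06 ± 0.22 (SE).

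The 7 NDUFAF genes within the rule encode factors that assemble complex I and then leave it. Their median log2 fold change was -0.33, and in 4 of the 7 the treated libraries lay below all vehicle libraries, as they did in 10.8% of all genes. NDUFAF4 was at 17.4, 19.5 and 23.2 CPM with vehicle and at 13.3, 13.7 and 15.3 CPM with MRT199665 (log2 fold change -0.50 ± 0.15, SE, adjusted p = 0.173). NDUFAF2, a factor related to the subunit NDUFA12, was at 32.8, 27.1 and 27.4 CPM with vehicle and at 19.1, 23.6 and 21.9 CPM with MRT199665 (adjusted p = 0.198). NDUFAF5, which modifies the core subunit NDUFS7, was at 6.61, 6.42 and 6.91 CPM with vehicle and at 3.92, 5.06 and 4.60 CPM with MRT199665 (adjusted p = 0.192). NDUFAF7, a methyltransferase, had means of 6.84 and 5.50 CPM. NDUFAF5 and NDUFAF7 were named after their values were seen. Without MRT199665 replicate 2 the log2 fold changes of NDUFAF4, NDUFAF2, NDUFAF5 and NDUFAF7 were -0.48, -0.50, -0.64 and -0.39. NDUFAF3 and NDUFAF6 had groups that overlapped, with log2 fold changes of -0.04 ± 0.12 and 0.17 ± 0.13 (SE).

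NUBPL, an assembly factor of complex I that delivers iron-sulphur clusters and has a symbol outside the rule, stood at 16.4 ± 1.99 CPM with vehicle and 11.4 ± 1.43 CPM with MRT199665 (n = 3 each, ± SD, adjusted p = 0.172). It belonged to a list of 11 further complex I assembly factors, all tested and none called. They had 5 positive and 6 negative log2 fold changes (median -0.03). Unadjusted p was under 0.05 for NUBPL alone, which was lower (7.11% of all genes). C17orf89, next by p, was at 269 ± 34.3 and 314 ± 30.2 CPM with vehicle and MRT199665 (n = 3 each, ± SD).

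Complex II, succinate dehydrogenase, joins the chain to the citric acid cycle and is encoded by nuclear genes only. SDHB, its iron-sulphur subunit, was at 13.9, 7.96 and 9.65 CPM with vehicle and at 5.20, 4.55 and 6.79 CPM with MRT199665. The treated libraries all lay below vehicle, and vehicle replicate 1 was the highest. SDHB was 1.87-fold lower (log2 fold change -0.91 ± 0.25, SE, adjusted p = 0.141), with a 95% interval from 0.360 to 0.791 of the vehicle level. It kept its direction in all 16 alternatives, between -1.11 and -0.65 on the log2 scale, and was called in 1, the fit without a low-count filter. Without MRT199665 replicate 2 it was -0.81.

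In the other subunits of complex II the groups overlapped. SDHA, the flavin subunit that oxidises succinate, was at 40.8, 20.3 and 23.8 CPM with vehicle and at 20.1, 30.4 and 32.8 CPM with MRT199665. SDHC, a membrane anchor, was at 6.95, 0.942 and 1.83 CPM with vehicle and at 1.28, 16.2 and 3.39 CPM with MRT199665. SDHC was thus high in vehicle replicate 1 and MRT199665 replicate 2 and low elsewhere, and its log2 fold change of 0.93 ± 0.93 (SE) turned to -0.93 without replicate 2 of both groups. SDHD, the other anchor, had only 1.37 to 1.84 CPM with vehicle and 1.05 to 1.69 CPM with MRT199665. SDHA, SDHC and SDHD have pseudogenes, so reads could be lost or split between copies.

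Complex III hands electrons from ubiquinol to cytochrome c. Its 8 nuclear members had 5 positive and 3 negative log2 fold changes (median 0.01). UQCRH, the hinge subunit, was at 842, 1091 and 989 CPM with vehicle and at 953, 1058 and 968 CPM with MRT199665, a log2 fold change of 0.03 ± 0.13 (SE). UQCRB, a subunit near the quinone site, was at 376 ± 84.7 CPM with vehicle and 377 ± 34.7 CPM with MRT199665 (n = 3 each, ± SD). UQCR11 had the lowest p (log2 fold change 0.33 ± 0.18, SE, adjusted p = 0.443), at 73.2, 65.7 and 59.5 CPM with vehicle and 66.0, 105 and 78.3 CPM with MRT199665. Without MRT199665 replicate 2, its highest library, the log2 fold change of UQCR11 was 0.12. UQCRC1, a core protein, was at 74.7, 68.7 and 74.4 CPM with vehicle and 50.3, 72.5 and 58.8 CPM with MRT199665, and UQCRQ had means of 189 and 215 CPM. In all of these the groups overlapped.

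CYCS, which encodes the cytochrome c that carries electrons from complex III to IV, was at 252 ± 28.5 CPM with vehicle and 214 ± 26.8 CPM with MRT199665 (n = 3 each, ± SD, adjusted p = 0.481). It had the lowest p of 9 chain genes under other symbols, none of which was called. ATPIF1, the inhibitor of the ATP synthase, was in the same list, at 258 ± 38.3 and 220 ± 23.6 CPM (n = 3 each, ± SD).

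Complex IV, cytochrome c oxidase, had 12 of its 19 nuclear members tested, with 8 positive and 4 negative log2 fold changes (median 0.03). NDUFA4, named for complex I but known as a subunit of complex IV, was counted here, at 52.7, 41.4 and 41.4 CPM with vehicle and 38.4, 61.9 and 47.6 CPM with MRT199665. COX4I1, a regulatory subunit, was among the steadiest genes, at 546, 520 and 529 CPM with vehicle and 522, 570 and 542 CPM with MRT199665, with a 95% interval from 0.865 to 1.21 of the vehicle level. COX7C and COX6C, the other members with high CPM, had log2 fold changes of -0.07 ± 0.14 and 0.06 ± 0.25 (SE). COX8A was the 1 nuclear gene of this complex whose groups did not overlap, at 335, 323 and 305 CPM with vehicle and 295, 193 and 287 CPM with MRT199665 (log2 fold change -0.31 ± 0.17, SE, adjusted p = 0.440). Without MRT199665 replicate 2, its lowest library, the log2 fold change was -0.14. COX6B1, which lies on the outer face of the complex, was at 153, 127 and 152 CPM with vehicle and 144, 225 and 168 CPM with MRT199665 (adjusted p = 0.460). Its log2 fold change was 0.31, and 0.11 without MRT199665 replicate 2.

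Several complex IV subunits exist as isoforms made by different genes in different tissues, and in OCI-AML2 the counts came from the widely expressed ones. COX4I2, the isoform known from lung and from low oxygen, had no count in any library. COX6A2 and COX7A1, known from heart and muscle, had 1 and 4 counts over all 6 libraries, while COX6A1 stood at 134 ± 17.5 and 113 ± 13.8 CPM and COX7A2 at 302 ± 15.0 and 292 ± 108 CPM with vehicle and MRT199665 (n = 3 each, ± SD). COX6B2 and COX8C, known from testis, had at most 6 and 3 counts in a library. NDUFA4L2, a relative of NDUFA4 known to be induced by low oxygen, had 8, 4 and 4 counts with vehicle and 3, 1 and 3 counts with MRT199665. COX7A2L, a relative of COX7A2 that takes part in joining complexes into supercomplexes, was at 39.3, 16.7 and 23.9 CPM with vehicle and 20.6, 53.3 and 25.7 CPM with MRT199665.

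Complex V had 16 tested nuclear members, 8 positive and 8 negative (median log2 fold change -0.01), and the groups overlapped in each. ATP5L, a membrane subunit with the highest CPM among nuclear members of this complex, was at 1857, 1457 and 1352 CPM with vehicle and 1633, 1641 and 1701 CPM with MRT199665. ATP5G2 and ATP5G3 encode the same ring protein through different precursors, and had log2 fold changes of -0.25 ± 0.21 and -0.10 ± 0.17 (SE). ATP5E, the epsilon subunit, was at 265, 180 and 219 CPM with vehicle and 234, 339 and 290 CPM with MRT199665 (log2 fold change 0.38 ± 0.18, SE, adjusted p = 0.384, and 0.24 without MRT199665 replicate 2). ATP5C1, the gamma subunit that forms the turning shaft, was at 30.9, 16.9 and 16.4 CPM with vehicle and 14.3, 17.7 and 16.7 CPM with MRT199665, so that vehicle replicate 1 alone stood apart. ATP5S and ATP5SL meet the letters of the rule but encode proteins that are not subunits, and were at log2 fold changes of -0.07 ± 0.19 and -0.01 ± 0.13 (SE). The readthrough rows ATP5J2-PTCD1 and NDUFC2-KCTD14 had no count.

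The 13 mitochondrial genes gave more counts than all nuclear members together. With vehicle they held 4.09%, 4.91% and 4.53% of all counts (replicates 1, 2 and 3), and with MRT199665 4.69%, 4.41% and 4.60%. The means were 4.51% ± 0.41 with vehicle and 4.56% ± 0.14 with MRT199665 (n = 3 each, ± SD), a difference smaller than the spread within either group. The nuclear members held 1.46% ± 0.084 of counts with vehicle and 1.41% ± 0.12 with MRT199665 (n = 3 each, ± SD). The ratio of mitochondrial to nuclear counts was 2.63, 3.53 and 3.17 with vehicle and 3.61, 2.87 and 3.29 with MRT199665, with no separation of the groups.

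MT-CO3, a core subunit of complex IV, had the most counts of the 13, at 14127, 20545 and 18034 CPM with vehicle and 20246, 16117 and 18525 CPM with MRT199665. These libraries sequence transcript ends, so CPM were not divided by length, and MT- genes that share an RNA or overlap (MT-ATP8 with MT-ATP6, MT-ND4L with MT-ND4) cannot be fully told apart. MT-CO1, the catalytic subunit, was at 499, 676 and 557 CPM with vehicle and 540, 523 and 538 CPM with MRT199665. MT-CO2, which receives the electron from cytochrome c, was at 1870, 924 and 1287 CPM with vehicle and 1152, 3473 and 1723 CPM with MRT199665. MRT199665 replicate 2 was the highest for MT-CO2 and the groups overlapped: its log2 fold change of 0.64 ± 0.39 (SE, adjusted p = 0.509) was 0.08 without that library.

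Of the mitochondrial subunits of complex I, which form the proton-pumping membrane arm, MT-ND5 was at 2205, 2921 and 2216 CPM with vehicle and 1985, 1675 and 1861 CPM with MRT199665. The treated libraries all lay below vehicle. MT-ND5 fell short of the threshold (adjusted p = 0.265, log2 fold change -0.41 ± 0.15, SE), with -0.35 without MRT199665 replicate 2. Leaving out 1 library in turn gave -0.48 to -0.27 for MT-ND5, and leaving out replicate 2 of both groups gave -0.21. MT-ND3 was the 1 member whose treated libraries all lay above vehicle, at 3954, 3706 and 3580 CPM with vehicle and 4108, 4602 and 4828 CPM with MRT199665 (log2 fold change 0.27 ± 0.13, SE, adjusted p = 0.393, and 0.25 without MRT199665 replicate 2). MT-ND6, the 1 subunit encoded on the other strand, was at 464, 717 and 496 CPM with vehicle and 484, 375 and 429 CPM with MRT199665. MT-ND4 was at 4314, 5265 and 4248 CPM with vehicle and 4567, 4601 and 4609 CPM with MRT199665. MT-ND1, MT-ND2 and MT-ND4L had log2 fold changes of 0.02 ± 0.17, -0.18 ± 0.21 and -0.11 ± 0.13 (SE).

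MT-CYB, the cytochrome b of complex III, was at 3131, 3569 and 3337 CPM with vehicle and 3452, 3854 and 3774 CPM with MRT199665 (log2 fold change 0.14 ± 0.13, SE). Of the complex V subunits, MT-ATP6 was at 3195 ± 556 and 3166 ± 312 CPM and MT-ATP8 at 1713 ± 122.6 and 1438 ± 142 CPM with vehicle and MRT199665 (n = 3 each, ± SD). The adjusted p of MT-ATP8 was 0.418.

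The share of each gene among the 13 does not depend on how libraries are scaled to each other. MT-ND5 made up 5.43%, 5.79% and 5.06% of the mitochondrial messenger counts with vehicle and 4.18%, 3.84% and 4.001% with MRT199665. MT-ND6 made up 1.14%, 1.42% and 1.13% with vehicle and 1.02%, 0.859% and 0.923% with MRT199665. MT-ND5 and MT-ND6 lie end to end on opposite strands, and as no source used here gives the strand setting of the counting, their reads cannot be told apart with certainty. MT-ATP8 made up 4.25%, 3.63% and 3.62% with vehicle and 3.37%, 3.09% and 2.93% with MRT199665, and MT-CO1 1.23%, 1.34% and 1.27% against 1.14%, 1.20% and 1.16%. These 4 shares, 30.8% of the 13, did not overlap between the groups, and each was lower with MRT199665. In CPM, which is another measure, the groups did not overlap for 22.2% of all genes, 10.8% lower and 11.4% higher. The shares sum to a fixed total, so they do not vary independently of each other. An exact two-sided permutation test of 3 libraries against 3 cannot go below p = 0.1, so that test cannot reach 0.05 for any share, and no other test of the shares was run. The share of MT-CO3 was 38.9% ± 3.56 with vehicle and 39.8% ± 2.86 with MRT199665 (n = 3 each, ± SD).

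**Figure D2:**
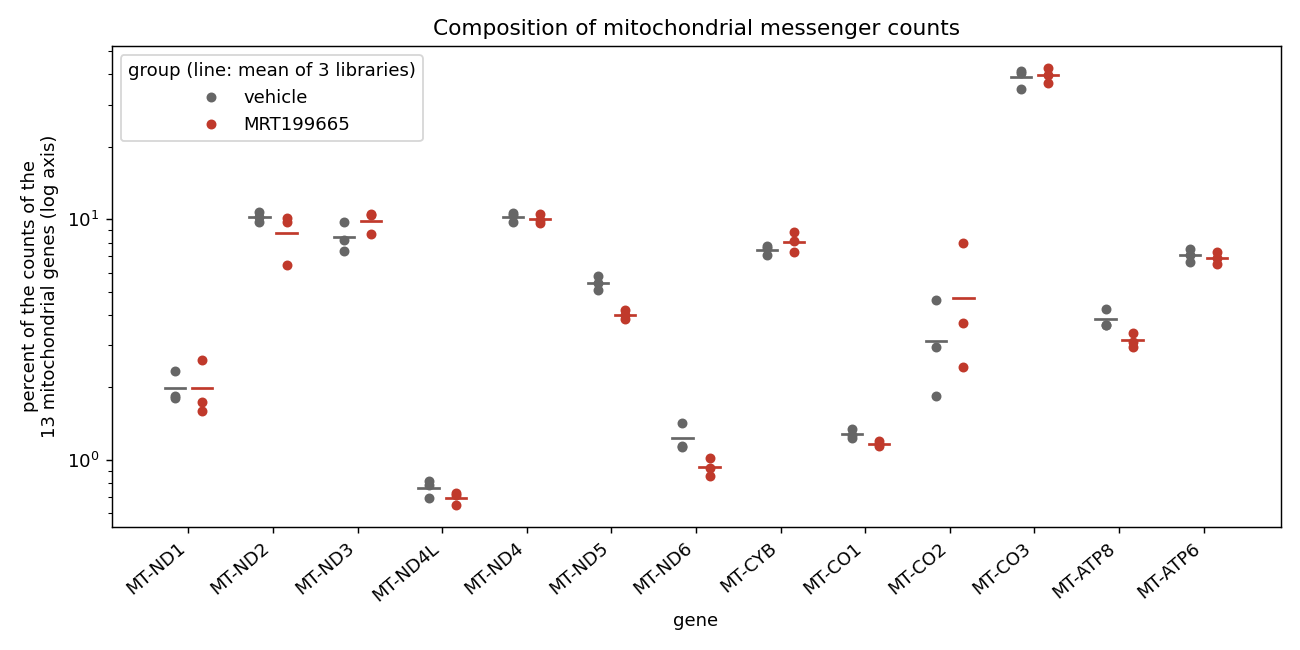
Share of each mitochondrial gene among the counts of the 13 (vertical log axis, percent), with 1 point per library and a line at the mean of 3 libraries, vehicle in grey and MRT199665 in red. The points of MT-ND5, MT-ND6, MT-ATP8 and MT-CO1 do not overlap between groups, while MT-CO2 ranges from 1.83% to 7.96%.

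The members varied more from library to library than from group to group. The median SD of log2(CPM + 0.5) within a group was 0.242 over the nuclear members, against a median absolute difference between group means of 0.129. The difference exceeded that SD for 25 of 85 nuclear and 5 of 13 mitochondrial members, and for 42.9% of all genes tested. MRT199665 replicate 2 was the highest library for 35 of the 85 nuclear members (41.2%) and MRT199665 replicate 1 for 0, where over all genes these shares were 24.8% and 14.8%. MRT199665 replicate 1 was the lowest library for 31 of the 85 (36.5%, against 12.01% of all genes). Among the mitochondrial genes, vehicle replicate 2 was the highest for 9 of 13.

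In MRT199665 replicate 2, 18 nuclear members were over 1.5-fold above the mean of replicates 1 and 3 (21.2%, against 10.1% of all genes) and 3 were under it by as much. NDUFB6, a membrane arm subunit of complex I named after its values were seen, had 20, 11 and 14 counts with vehicle and 2, 24 and 15 counts with MRT199665, although replicate 2 was the least deep library. COX7B, a small membrane subunit of complex IV chosen after its values were seen, was at 68.6, 29.4 and 44.3 CPM with vehicle and 30.1, 80.3 and 48.4 CPM with MRT199665. Its highest libraries were MRT199665 replicate 2 and vehicle replicate 1, as for SDHC and COX7A2L. Across the 85 nuclear members, the deviation of MRT199665 replicate 2 from replicates 1 and 3 went with that of vehicle replicate 1 from vehicle replicates 2 and 3 (Pearson's r = 0.697 across genes, which share these libraries and are not independent, and 0.507 over all genes tested). These deviations had the same sign for 74.1% of nuclear members and 66.3% of all genes. MRT199665 replicate 2 was also the library of lowest depth, and its part in this pattern was not tested.

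**Figure D3:**
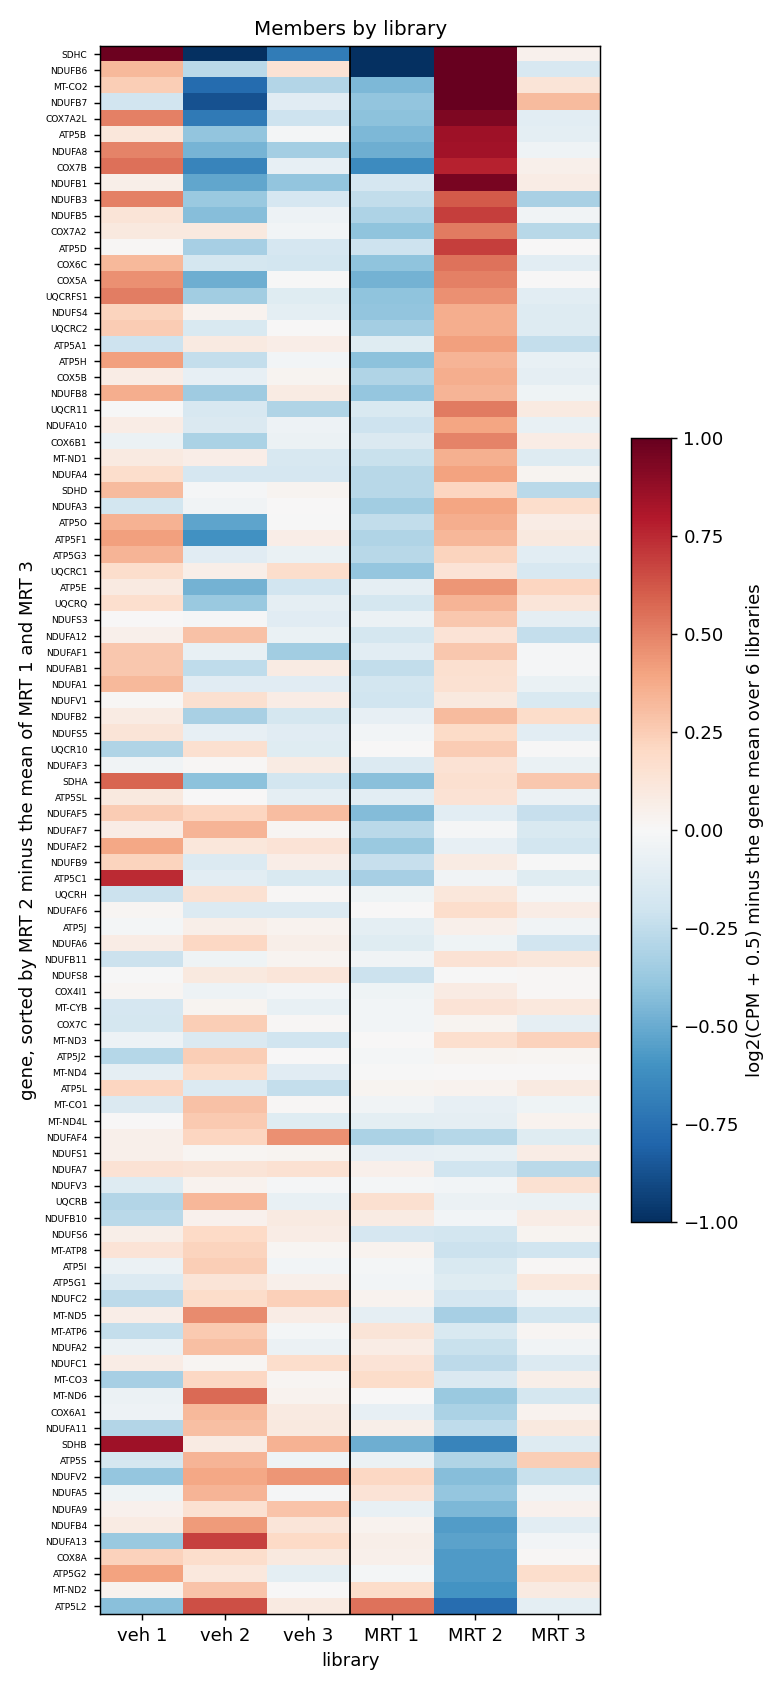
Each row is a tested member (1 is not drawn) and each column a library (veh, vehicle; MRT, MRT199665). Colour gives log2(CPM + 0.5) minus the mean of the gene over the 6 libraries, and saturates at the ends of the scale. Rows at the top are highest in MRT 2, and some of them, such as SDHC and COX7A2L, are also high in veh 1.

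Copies of 3 members gave a further view of the same libraries. ATP5EP2, a retrocopy of ATP5E, held 5.15%, 16.7% and 10.1% of the counts of the pair with vehicle (replicates 1, 2 and 3) and 14.8%, 4.01% and 7.47% with MRT199665. COX6A1P2, a retrocopy of COX6A1, held 29.2%, 41.2% and 35.3% with vehicle and 40.2%, 26.6% and 36.3% with MRT199665. ATP5L2, a copy of ATP5L that is itself among the members, held 0.386%, 1.06% and 0.768% with vehicle and 0.883%, 0.338% and 0.534% with MRT199665. In all 3 pairs vehicle replicate 2 was the highest and MRT199665 replicate 1 next, and vehicle replicate 1 and MRT199665 replicate 2 were the lowest. The groups overlapped in each pair, and reads of parent and copy can be exchanged where their sequence is the same. Of the 120 rows left out by the rule, 77 had no count and 3 had over 100 counts in all: COX6A1P2 with 4779, ATP5EP2 with 1788 and the antisense gene NDUFA6-AS1 with 636.

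**Figure D4:**
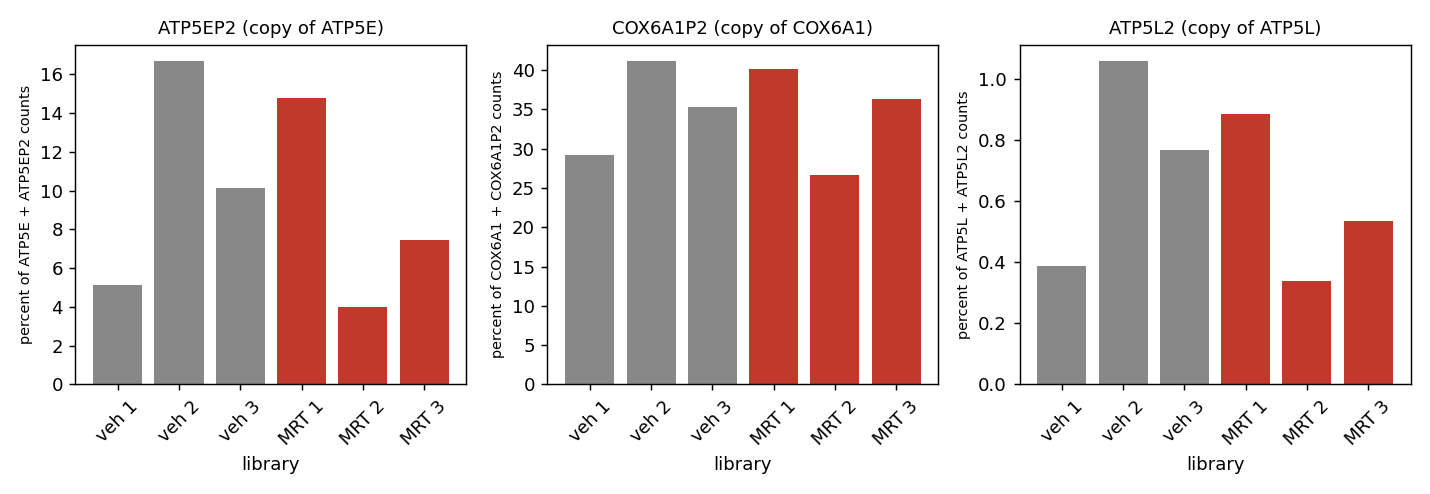
Percent of the counts of a gene and its copy that were assigned to the copy (vertical axis, from 0), by library, for ATP5EP2, COX6A1P2 and ATP5L2, with vehicle bars grey and MRT199665 bars red. The order of libraries is nearly the same in all 3 panels and does not follow the groups.

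The transcripts of nuclear members were short, with a median length of 785 bases against 2558 bases over the 82.9% of tested genes with a value. The GC content of the last 500 bases had a median of 46.6%, against 43.2%. Across the 85 nuclear members neither went closely with the deviation of MRT199665 replicate 2 (Spearman's rho of -0.12 for GC content and -0.13 for length, across genes that share these libraries).

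The genes that build, regulate and supply the chain under other names were counted in 10 lists. None of the lists held a gene called by edgeR, while DESeq2 called 1 gene in each of 2 lists. Among 15 tested nuclear regulators of respiratory genes 1 had an unadjusted p under 0.05 and was higher (7.64% of all genes). This was TFEB, a transcription factor of lysosomal genes. Its level was 16.7 ± 1.35 CPM with vehicle and 25.3 ± 0.55 CPM with MRT199665 (n = 3 each, ± SD, adjusted p = 0.0700). DESeq2 called TFEB (adjusted p = 0.0257). GABPB1, a subunit of the ETS factor named above, was at 8.03 ± 0.779 and 9.32 ± 0.146 CPM with vehicle and MRT199665 (n = 3 each, ± SD).

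In the list of pyruvate entry and the citric acid cycle, which feed NADH and succinate to the chain, 20 of 27 tested genes had a negative log2 fold change (median -0.18), and unadjusted p was under 0.05 for 7 lower and 1 higher (7.11% and 7.64% of all genes). ME2, a mitochondrial malic enzyme, was at 30.4 ± 2.93 CPM with vehicle and 19.4 ± 3.52 CPM with MRT199665 (n = 3 each, ± SD, adjusted p = 0.115), and DESeq2 called it (adjusted p = 0.0412). PDK2, a kinase that inhibits pyruvate dehydrogenase, was at 0.865 ± 0.226 and 1.91 ± 0.428 CPM in the same order (n = 3 each, ± SD, adjusted p = 0.173). The vehicle level of PDK2 was not far above the limit of 0.210 to 0.511 CPM set by a count of 0. Of 18 tested genes of inner membrane organisation and proteolysis 16 were negative (median -0.20), 5 of them with an unadjusted p under 0.05 (7.11% of all genes). HSPE1, a mitochondrial co-chaperonin, was at 29.8 ± 2.57 CPM with vehicle and 21.4 ± 1.33 CPM with MRT199665 (n = 3 each, ± SD, adjusted p = 0.135). CLPP, a matrix protease, was at 122 ± 5.51 and 95.2 ± 4.26 CPM in the same order (n = 3 each, ± SD, adjusted p = 0.152).

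Genes that maintain and transcribe mitochondrial DNA were split evenly, 9 positive and 9 negative, with no unadjusted p under 0.05. C10orf2, the mitochondrial helicase, was at 17.7 ± 1.61 and 22.4 ± 3.05 CPM with vehicle and MRT199665 (n = 3 each, ± SD), and SSBP1, the single-strand binding protein, at 304 ± 18.7 and 257 ± 16.7 CPM (n = 3 each, ± SD). Of 24 genes of mitochondrial RNA processing and translation 16 were negative (median -0.04), 3 of them with an unadjusted p under 0.05 (7.11% of all genes). LRPPRC, which stabilises mitochondrial messengers, was at 89.5 ± 4.60 and 72.8 ± 3.24 CPM with vehicle and MRT199665 (n = 3 each, ± SD, adjusted p = 0.235), and MTIF2, a translation initiation factor, at 95.1 ± 3.23 and 75.3 ± 10.5 CPM (n = 3 each, ± SD, adjusted p = 0.265).

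Of 38 assembly factors of complexes II to V, 14 were positive and 24 negative (median -0.05), with an unadjusted p under 0.05 for 4 and 2 (7.64% and 7.11% of all genes). COA3, needed for complex IV, was at 51.1 ± 3.10 and 64.5 ± 3.999 CPM with vehicle and MRT199665 (n = 3 each, ± SD, adjusted p = 0.207), and C6orf57, a factor of complex II also called SDHAF4, at 6.88 ± 1.37 and 4.28 ± 0.839 CPM (n = 3 each, ± SD, adjusted p = 0.209). Carriers and channels of the mitochondrial membranes had a median log2 fold change of -0.01 over 12 genes. Of them 1, VDAC2, had an unadjusted p under 0.05 and was lower (7.11% of all genes). This channel of the outer membrane was at 112 ± 13.9 and 90.2 ± 9.79 CPM with vehicle and MRT199665, and SLC25A13, a carrier for aspartate and glutamate, at 9.99 ± 0.884 and 11.6 ± 0.0977 CPM (n = 3 each, ± SD). Coenzyme Q synthesis had 10 of 13 genes negative (median -0.13), none with an unadjusted p under 0.05. PDSS1, which makes the side chain of coenzyme Q, was at 5.57 ± 1.08 and 4.06 ± 0.767 CPM with vehicle and MRT199665, and COQ10B at 7.44 ± 0.471 and 6.21 ± 0.355 CPM (n = 3 each, ± SD). Of all tested genes 49.1% had a negative log2 fold change, and no list was tested as a whole.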

How the data were processed

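Messenger RNA 3′ ends were sequenced (Lexogen kit, per the labels' protocols) in 6 libraries of OCI-AML2, grouped by the labels' titles. The submitters' processing notes name the hg19 build, STAR 2.4, HTSeq 0.6.1 and DESeq2. Annotation, strand setting and read filters are not given in the sources used here. Values in the deposited table are raw counts per gene symbol.

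The quasi-likelihood test of edgeR 4.0.16 (R 4.3.3) was fitted to all genes with TMM scaling and group as the only term. A filterByExpr minimum count of 10 kept 13053 of 55765 genes, over which p-values were adjusted (Benjamini-Hochberg, two-sided, threshold 0.05). Fold changes are MRT199665 over vehicle. The SE is the log2 fold change divided by the square root of F, and 95% intervals use the fit's total degrees of freedom. CPM are on TMM-scaled totals, marker CPM and detection limits on plain totals. Alternatives were other scalings (1 without MT- genes), other low-count filters, DESeq2 1.42.0, limma-voom (limma 3.58.1), the replicate number as a block, and leaving out each library or replicate 2 of both groups. The test was checked on simulated counts, where it called 4.48% of 1.5-fold, 49.3% of 2-fold and 89.4% of 4-fold changes. Most changes of 1.5-fold would therefore be missed.

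Members and lists were chosen with earlier results of these data known. Named genes were, per complex and genome, the lowest p in each direction and the 3 highest mean CPM, all MT- members, the SDH genes, the isoform sets and the 2 lowest p of each related list. Gene types came from RefSeq, where all 108 members matched by symbol or older name, and transcript features from GENCODE 29 on GRCh38. No coordinates of the authors' build are given. Libraries of 1 group differed beyond sampling noise (chi-square over degrees of freedom at least 9.53). Values of 2 genes that the naming rule or marker lists hold are not reported here.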

Additional observations from a re-analysis of the deposited data

How the results depend on the processing

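Depth limits what could be seen: in the least deep library 3 counts were 0.511 CPM, and SDHD, NDUFB6 and NDUFS7 had at most 24 counts in a library. SDHC had more, and its SE of 0.93 goes with levels of 1.28 to 16.2 CPM within the MRT199665 group. Scaling moved the median of all genes by less than 0.1 on the log2 scale. No member was called in 15 of 16 alternatives. Without a low-count filter 4 nuclear members and 1 mitochondrial member were called. In that fit 644 of 28230 genes were called in all, against 163 of 13053 with the filter. Also called were 1 chain gene under another symbol, 3 genes of pyruvate entry and the citric acid cycle and 1 of inner membrane organisation. DESeq2 called 363 genes in all, among them 1 regulator (TFEB) and 1 gene of the citric acid cycle list (ME2). The cause of these differences was not tested.

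Deviations of same-numbered libraries from their group means correlated at -0.547, -0.467 and 0.018. Those of vehicle replicate 2 and MRT199665 replicate 1 correlated at 0.530, and those of vehicle replicate 1 and MRT199665 replicate 2 at 0.482. Deviations from a mean of 3 are not independent, so these values cannot tell whether libraries were prepared in pairs. With the replicate number as a block (replicate block) 12 genes were called in all and no member, MT-ND4 had a log2 fold change of 0.0019 and SDHA 0.0097. Leaving out 1 library gave between 49 and 133 calls over all genes: 133, 94 and 49 without vehicle replicates 1, 2 and 3 and 79, 99 and 56 without MRT199665 replicates 1, 2 and 3.

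The sign turned for 37 of 98 members without replicate 2 of both groups and for 27 without MRT199665 replicate 2, and values are given here for those named in the text. Without replicate 2 of both groups NDUFB6 turned from 0.089 to -1.32 and ATP5L2 from -0.15 to 0.42. Leaving out 1 library in turn gave -1.115 to 0.75 for NDUFB6 and -0.55 to 0.18 for ATP5L2. UQCRB was at -0.0020 with RLE size factors, -0.0096 on library totals only, -0.00094 with scaling outside the mitochondrial genome, -0.020 without a filter, -0.0062 with a minimum count of 30 and -0.0020 with DESeq2. MT-ND1 was at -0.0086 without a filter, and MT-ND4 at 0.0055 with upper quartile scaling and 0.0023 with limma-voom. Without replicate 2 of both groups log2 fold changes turned to 0.22 (ATP5S), -0.018 (COX4I1), -0.34 (COX6C), -0.46 (COX7A2L), -0.53 (COX7B), 0.017 (COX7C), 0.20 (MT-ATP6), 0.026 (MT-CO1), -0.14 (MT-CO2), -0.15 (MT-ND1), 0.11 (MT-ND2), 0.096 (MT-ND4), 0.022 (MT-ND4L), -0.13 (NDUFA4), -0.026 (NDUFS3), -0.93 (SDHC) and -0.071 (UQCRQ).

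Leaving out 1 library in turn gave log2 fold changes that spanned 0: -0.26 to 0.050 (ATP5G3), -0.0012 to 0.24 (ATP5L), -0.24 to 0.097 (ATP5S), -0.089 to 0.034 (ATP5SL), -0.25 to 0.25 (COX6C), -0.40 to 0.11 (COX7A2), -0.20 to 0.68 (COX7A2L), -0.27 to 0.51 (COX7B), -0.16 to 0.040 (COX7C), -0.13 to 0.12 (MT-ATP6), -0.21 to 0.0053 (MT-CO1), -0.078 to 0.18 (MT-CO3), -0.18 to 0.12 (MT-ND1), -0.33 to 0.023 (MT-ND2), -0.063 to 0.091 (MT-ND4), -0.071 to 0.27 (NDUFA4), -0.13 to 0.015 (NDUFAF3), -0.27 to 0.11 (NDUFB8), -0.036 to 0.14 (NDUFS3), -0.23 to 0.33 (SDHA), -0.48 to 2.18 (SDHC), -0.13 to 0.18 (UQCRB) and -0.068 to 0.11 (UQCRH). SDHB, NDUFAF2, NDUFAF4, NDUFAF5, NDUFB4, COX8A, MT-ND3 and MT-ND5 kept their direction in all 16 alternatives. Medians moved beyond the spread between libraries for the complex I core (-0.071 without MRT199665 replicate 1, -0.072 without replicate 2 of both groups), accessory subunits (0.040 without MRT199665 replicate 1) and assembly factors (-0.22 without vehicle replicate 2), for complex II (-0.78) and mitochondrial complex V (0.016) without replicate 2 of both groups, and for mitochondrial complex IV (-0.078 without vehicle replicate 1).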
